A study of Mus musculus with 2 samples.

Results

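The genes examined here encode the T cell receptor complex, its coreceptors and other surface and signalling proteins of T cells, and they were read in RNA of B cells that had been sorted to leave T cells out. The 10 genes were fixed by name as Cd3e, Cd3d, Cd3g, Cd4, Cd8a, Cd8b1, Thy1, Cd2, Lck and Cd5, and every probe set to which the array platform's gene table gives one of these symbols was taken. This gave 14 probe sets for 9 of the 10 genes, out of 45037 probe sets and 18193 named genes on the array besides its controls. The gene table used here has no probe set under the symbol Lck, the kinase that starts receptor signalling, so Lck was not analysed here.

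The AIRE transgenic group was B cells of NOD mice, a strain prone to autoimmune diabetes, that carried human AIRE under an MHC class II promoter. The non-transgenic group was B cells of NOD mice without that transgene. All mice were 8 weeks old, and in both groups the cells carried B220 and lacked Thy1 and CD11c by sorting. RNA from 2 mice per group was measured on 1 Affymetrix array per group. No difference below therefore has a replicate check, a test or an error, and having so few arrays limits how precise any ratio is. An MHC class II promoter is active in antigen-presenting cells in general, so the transgene need not have been confined to B cells in the animals.

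A T cell recognises antigen through a receptor made of variable chains that carry no signalling parts of their own. The CD3 gamma, delta and epsilon chains, together with the zeta chain, assemble with the receptor and carry the tyrosines that are phosphorylated when it binds antigen. CD4 and CD8 are coreceptors that bind MHC class II and class I and bring the kinase Lck to the complex. Several of the genes are not restricted to T cells in mice: Cd2 is also expressed by B cells and natural killer cells, Cd5 marks B-1 cells, and Cd4 and Cd8a are found on subsets of dendritic cells.

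The genes for the CD3 chains lie together, and the 250 bases before the start of each are shown because these neighbouring genes, normally expressed together by T cells, are the members that belong to the receptor complex itself. Promoter sequence for 6 of the 10 genes was found in RefSeq (build GRCm38.p6). Cd3g and Cd3d are transcribed away from each other from starts 1355 bases apart, and the start of Cd3e lies 27825 bases from that of Cd3d. Capitals mark matches on either strand to AGGAAG, a core bound by ETS factors, and to CAGGTG, an E-box.
Cd3e, chr9:45009612-45009861, minus strand: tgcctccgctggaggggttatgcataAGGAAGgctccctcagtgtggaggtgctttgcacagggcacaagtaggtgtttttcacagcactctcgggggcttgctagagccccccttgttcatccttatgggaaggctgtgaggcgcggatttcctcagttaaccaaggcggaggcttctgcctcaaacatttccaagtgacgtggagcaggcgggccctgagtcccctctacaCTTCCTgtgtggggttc
Cd3d, chr9:44981536-44981785, plus strand: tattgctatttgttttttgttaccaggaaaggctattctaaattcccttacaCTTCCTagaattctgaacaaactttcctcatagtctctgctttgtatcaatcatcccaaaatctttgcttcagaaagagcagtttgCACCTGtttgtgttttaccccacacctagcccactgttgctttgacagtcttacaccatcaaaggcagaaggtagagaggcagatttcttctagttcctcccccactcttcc
Cd3g, chr9:44980432-44980681, minus strand: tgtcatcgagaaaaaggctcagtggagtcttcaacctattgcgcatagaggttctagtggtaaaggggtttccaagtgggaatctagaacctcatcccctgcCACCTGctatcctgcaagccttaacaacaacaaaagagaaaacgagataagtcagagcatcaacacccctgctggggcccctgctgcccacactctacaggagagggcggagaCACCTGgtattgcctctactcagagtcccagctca
The ETS core was found 2 times before Cd3e, 1 time before Cd3d and 0 times before Cd3g. The E-box was found 0 times before Cd3e, 1 time before Cd3d and 2 times before Cd3g. The Runx core TGTGGT was searched as well and is in none of these 3 windows, and no matches overlapped. Of all 32851 promoter windows of that length, 29.5% hold the ETS core, 17.2% the E-box and 14.0% the Runx core on either strand. The matches describe the letters only.

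Intensities below are linear signals after the medians of both arrays were aligned, in arbitrary units, and they are not comparable between probe sets. Ratios are given as log2 of transgenic over non-transgenic. Intensities below 25.1, the floor, were raised to it first. A probe set was above the filter when the larger of its values was at least 98.8, the pooled median, and it was called if it was also at least 2-fold apart. Of the 14 probe sets, 9 were above the filter, 7 of these on both arrays, and 5 were under it on both. No detection calls were used, so an intensity near the filter does not show whether a transcript was present. Fewer cells of a type and less RNA per cell cannot be told apart in these bulk samples.

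Of the 14 probe sets, 1 was called higher on the transgenic array, for Cd4, and 1 was called lower, for Thy1. Over all 23987 probe sets above the filter, 4.71% were called higher and 4.04% lower. The CD3 chains, Cd2 and Cd5 were less than 2-fold apart. The 9 probe sets above the filter had a median log2 ratio of -0.20, and the 7 above it on both arrays had -0.37, against 0.15 for all probe sets in either case. All 14, with dim values floored, had a median of -0.06 against 0.00 for all 45037. Only 2 of the 9 lay above the median ratio of all probe sets. However, 8 of the 9 had a higher value under 395, a dim range chosen after the values were seen. All probe sets above the filter in that range had a median of only 0.04, which Cd3d, at 0.15, also exceeded. The gap to 0.15 is therefore wider than the gap to probe sets of similar brightness.

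**Figure D1:**
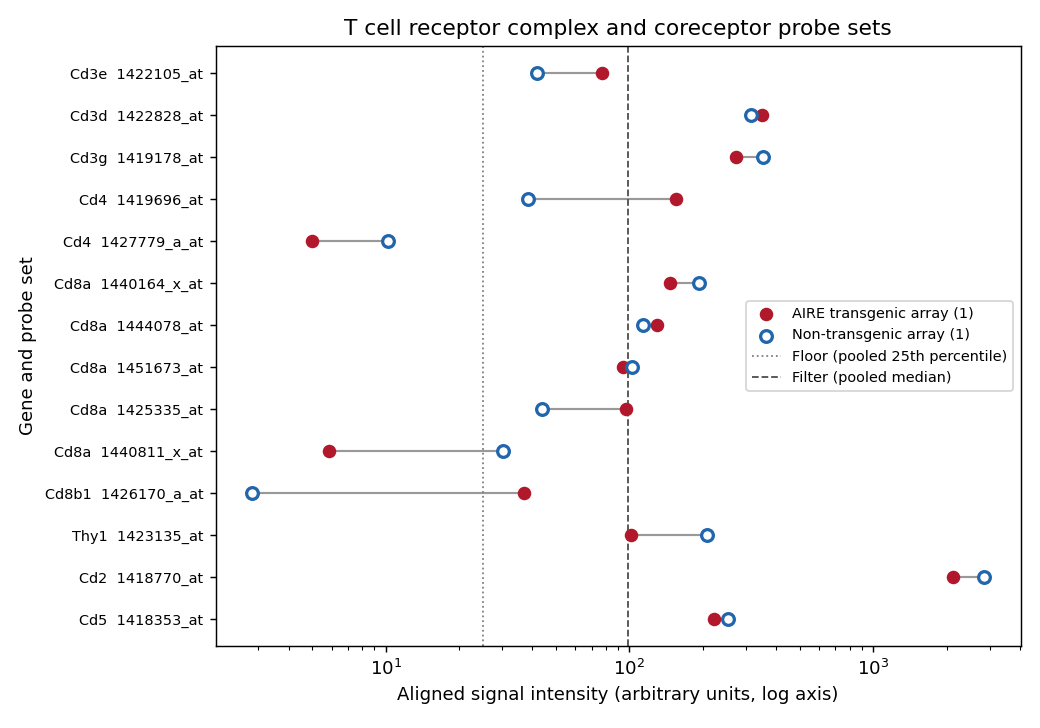
Aligned signal intensity on a log axis for each of the 14 probe sets, with 1 filled point for the transgenic and 1 open point for the non-transgenic array. Cd4 1419696_at stands at 155 in transgenic and 38.4 in non-transgenic cells, Thy1 at 101 and 208, and the Cd3d, Cd3g, Cd2 and Cd5 pairs lie close together to the right of the filter line at 98.8.

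Among the CD3 chains, Cd3d, the delta chain (probe set 1422828_at), was at 349 in transgenic and 315 in non-transgenic cells, a log2 ratio of 0.15 that was -0.02 without alignment. Cd3g, the gamma chain (1419178_at), was at 274 in transgenic and 353 in non-transgenic cells (-0.37). Both genes were above the filter on both arrays, and both differed by less than 2-fold. Cd3e, the epsilon chain (1422105_at), was at 76.8 in transgenic and 41.7 in non-transgenic cells, a ratio of 0.88 between values that were both under the filter. The 3 chains therefore gave 1 ratio close to the median of all probe sets, 1 below it and 1 above it at dim levels.

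Of the coreceptors, Cd4, the partner of MHC class II recognition, was represented by 2 probe sets that differ in brightness. Probe set 1419696_at was at 155 in transgenic and 38.4 in non-transgenic cells, a log2 ratio of 2.01 or 4.03-fold higher. As deposited, before alignment, these values were 146 in transgenic and 40.5 in non-transgenic cells. It passed the filter through its transgenic value alone, so a probe set of this kind could hardly have passed without differing. The other, 1427779_a_at, was under the floor on both arrays, at 4.99 in transgenic and 10.2 in non-transgenic cells, and gives no ratio. The difference in Cd4 thus rests on 1 probe set, and its non-transgenic value lay near the floor. It was not called under 3 of 11 alternative settings, and with the floor raised to the pooled median its ratio was 0.65.

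Cd8a, the alpha chain of CD8, was represented by 5 probe sets, which did not share a direction. Above the filter, 1440164_x_at was at 147 in transgenic and 192 in non-transgenic cells (-0.39), 1444078_at at 130 against 113 (0.20), and 1451673_at at 94.1 against 103 (-0.13). Their ratios lay on both sides of 0 and all within 2-fold. Probe set 1425335_at, designed on the same transcript record as 1451673_at, was at 97.0 in transgenic and 43.7 in non-transgenic cells (1.15, 2.22-fold), just under the filter. Of the probe sets nearest the filter, 1451673_at was thus inside it with a higher value of 103 and 1425335_at outside it with 97.0. The fifth, 1440811_x_at, was under the floor on the transgenic array at 5.84, against 30.3 on the non-transgenic array. The suffix of 2 of these 5 marks sequence that may hybridise to other transcripts. Cd8b1, the beta chain that pairs with Cd8a on most cytotoxic T cells, was at 36.9 on the transgenic array and under the floor at 2.84 on the non-transgenic array (1426170_a_at). Both of its values were under the filter.

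Thy1, the surface glycoprotein against which the cells were sorted (1423135_at), was at 101 in transgenic and 208 in non-transgenic cells. The log2 ratio was -1.04, or 2.05-fold lower, which is just past the threshold. As deposited, the values were 95.4 in transgenic and 220 in non-transgenic cells. Both aligned values were above the filter, the transgenic one barely. Of all 21062 probe sets above the filter on both arrays, 1.79% were called lower and 2.57% higher.

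Cd2, an adhesion receptor for CD48 in mice (1418770_at), was the only one of the 9 genes with values far above the filter, at 2131 in transgenic and 2845 in non-transgenic cells (-0.42). Cd5, a scavenger receptor family protein that dampens antigen receptor signals (1418353_at), was at 221 in transgenic and 253 in non-transgenic cells (-0.20). Both were lower on the transgenic array by less than 2-fold. The list of B-1 cell genes, a kind of B cell that carries Cd5, was read for 4 of 5 genes and had 1 of 5 probe sets above the filter called lower and 0 called higher, with a median of -0.29. The called one was for Zbtb32, a zinc finger repressor, at 52.0 in transgenic and 186 in non-transgenic cells (-1.84). It passed the filter through its non-transgenic value alone, and 4.04% of all probe sets above the filter were called lower. The other Zbtb32 probe set was at 0.30 with both values under the filter. Spn, the sialophorin CD43 that B-1 cells carry, went the other way by its brighter probe set, at 857 in transgenic and 440 in non-transgenic cells (0.96), and was at -0.29 by the other. It was picked out after its values were seen.

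Dim probe sets scattered more than bright ones on these arrays. Of the 9 probe sets above the filter, 8 had a higher value under 395, which is 4 times the filter, and Cd2 alone was brighter. In that dim range, chosen after the values were seen, 7.68% of all 9495 probe sets were called higher and 7.25% lower, against 2.77% and 1.95% of the 14492 brighter ones. The median log2 ratio of all probe sets in the dim range was 0.04, against 0.15 for all above the filter. The SD of the log2 ratio was 0.77 in the dim range and 0.49 above it. Across 5172 genes with at least 2 probe sets above the filter, the brightest 2 differed in log2 ratio by a median of 0.36, and by 0.49 for the 838 genes in the dim range. The 90th percentile over those dim pairs was 1.41.

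**Figure D2:**
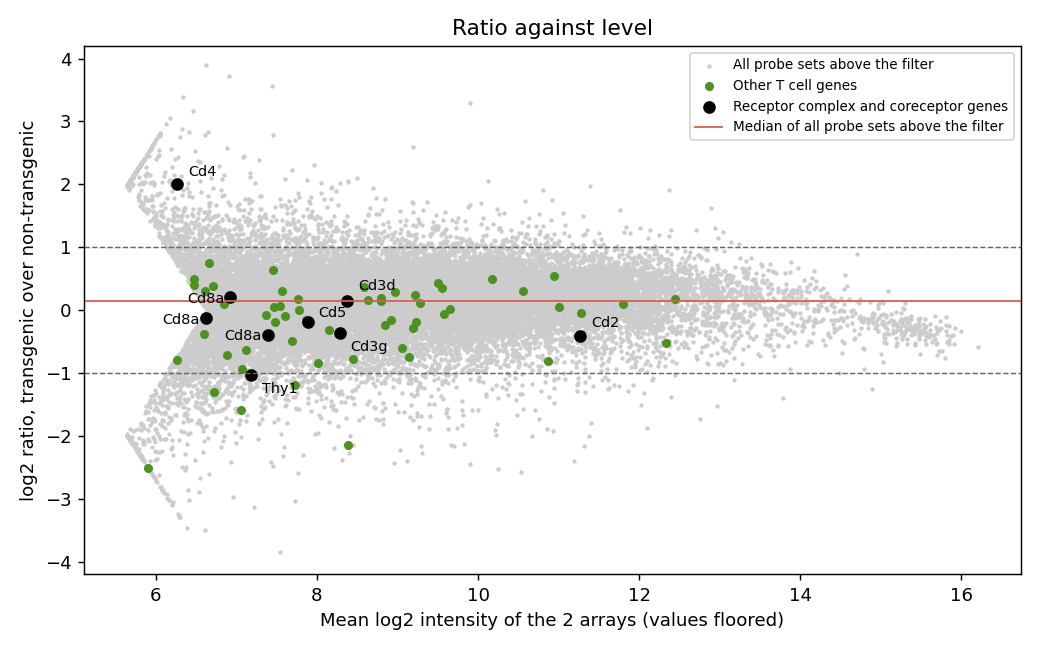
Log2 ratio, transgenic over non-transgenic, against the mean log2 intensity of both arrays for all probe sets above the filter (grey), other T cell genes (green) and the receptor complex and coreceptor genes (black, named). Dashed lines mark 2-fold. Cd4 at 2.01 and Thy1 at -1.04 lie in the dim range at the left, where the grey points spread most, and Cd2 at -0.42 lies to the right.

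Other genes of T cells were read from 4 lists, which together held 95 probe sets for 51 genes. Of 56 above the filter, 0 were called higher and 5 lower, or 8.93% lower against 4.04% of all probe sets. Most of the 5 lie in the dim range under 395, where 7.25% of all probe sets were called lower. The 56 had a median log2 ratio of -0.02, and the 44 above the filter on both arrays had 0.01, against 0.15 for all probe sets in either case. No test was run. The 5 lower probe sets belonged to 5 genes. The count was 2 of 44 where both values had to pass the filter, against 1.79% of all probe sets. It was 1 of 36 where each gene kept its brightest probe set alone, against 3.19%. Several of these genes, such as Fyn, Csk, Vav1, Pag1 and Rasgrp1, are expressed by B cells too, so their levels do not trace T cells.

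Receptor genes themselves were read by 17 probe sets named for 10 genes of the receptor loci, mostly variable segments. As segments share sequence and are joined to a common constant region, it is uncertain which was read. Of 8 above the filter, 1 was called lower and 0 higher, against 4.04% and 4.71% of all probe sets, and the median was 0.09. The called one was Trgv1, a gamma chain segment, at 67.4 in transgenic and 165 in non-transgenic cells (-1.30). The brightest was a probe set for the beta chain segment Trbv1 (1452205_x_at), at 645 in transgenic and 598 in non-transgenic cells (0.11). For the alpha chain segment Trav9d-3, the brightest probe set (1426113_x_at) was at 468 in transgenic and 421 in non-transgenic cells (0.15). Trbv1 and Trav9d-3 were chosen after their values were seen. Both differed by less than 2-fold.

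Receptor signalling was read by 41 probe sets for 18 of 19 listed genes. Of 25 above the filter, 0 were called higher and 1 lower, against 4.71% and 4.04% of all probe sets, with a median of -0.04. The called one was 1 of 4 probe sets for Pag1, a membrane adaptor that recruits Csk, under the floor on the transgenic array at 19.7 against 143 on the non-transgenic array, at least 5.71-fold lower. The other Pag1 probe sets lay between -0.15 and 0.17. Chosen after their values were seen, the zeta chain Cd247 (1426396_at), the remaining signalling chain of the complex, was at 167 in transgenic and 190 in non-transgenic cells (-0.18), and its other 3 probe sets were under the filter. Zap70, the kinase that binds the phosphorylated CD3 and zeta chains, was at 431 in transgenic and 658 in non-transgenic cells by its brightest probe set (-0.61), and its other 2 were at -0.64 and 0.30. Lat, the adaptor that Zap70 phosphorylates, was at 255 in transgenic and 317 in non-transgenic cells (-0.31). None of these 3 was 2-fold apart by any probe set above the filter.

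T cell surface genes gave 21 probe sets for 15 of 16 genes. Of 13 above the filter, 0 were called higher and 1 lower, against 4.71% and 4.04% of all probe sets, with a median of -0.07. The called one was for Il2rb, a chain of the interleukin-2 and interleukin-15 receptors that natural killer cells also carry, at 140 in transgenic and 321 in non-transgenic cells (-1.20), and its other probe set was at -0.74. T cell transcription factors gave 16 probe sets for 8 of 10 genes, of which 10 were above the filter. In this list 2 were called lower and 0 higher, against 4.04% and 4.71% of all probe sets, with a median of 0.03. Zbtb7b, which directs thymocytes to the CD4 lineage, was at 159 in transgenic and 706 in non-transgenic cells (-2.15), with its other probe set at -0.77. Runx3, which directs them to the CD8 lineage and is also used by natural killer cells, was at 76.8 in transgenic and 232 in non-transgenic cells (-1.59), but its brighter probe set was at 2373 against 1628 (0.54). Zbtb7b was thus lower by both of its probe sets, and those of Runx3 disagreed.

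**Figure D3:**
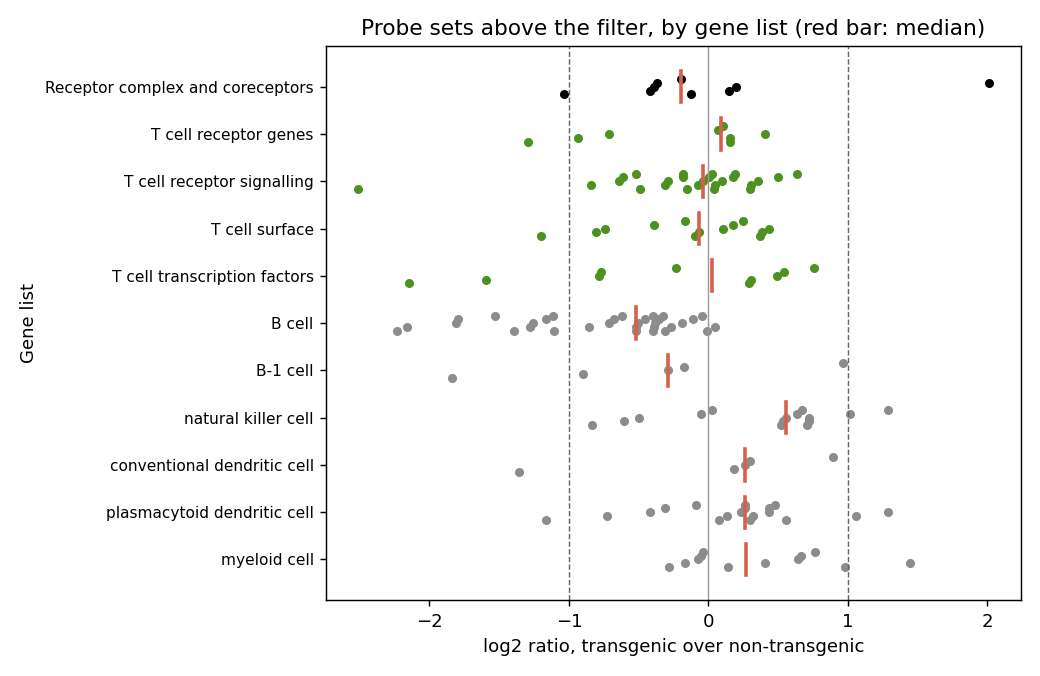
Log2 ratio, transgenic over non-transgenic, of every probe set above the filter in each gene list, with a red bar at the list's median and dashed lines at 2-fold. The receptor complex and coreceptor genes have a median of -0.20, the 4 other T cell lists lie between -0.07 and 0.09, the B cell list is at -0.52 and the natural killer cell list at 0.55.

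Marker genes of B cells and of other blood cells were read on the same arrays. Of 34 B cell probe sets for 14 of 15 genes, 30 were above the filter on both arrays, as were 21062 of all 45037. So were 12 of 12 myeloid and 13 of 15 natural killer probe sets, so passing the filter does not identify the cell type. Of 32 B cell probe sets above the filter, 11 were called lower and 0 higher, with a median of -0.52. Of all probe sets above the filter, 4.04% were called lower. The intensities of all 34 B cell probe sets, summed within each array, came to 317467 in transgenic and 472835 in non-transgenic cells. Such a sum is led by its brightest probe sets. Very bright probe sets of other genes, picked after their values were seen, included Tpt1 at -0.48, Tmsb4x at -0.40 and Rps15 at 0.04 and -0.22. How far the lower values of the B cell list go with brightness was not tested. The 4 genes with the largest called differences were Ighm, Fcer2a, Pax5 and Cd79a, all called lower. Several of the 11 were for Ighm, whose brightest probe set was not called, at 44462 in transgenic and 63675 in non-transgenic cells (-0.52). Pax5 was called by its dimmer probe set alone, at 91.9 in transgenic and 223 in non-transgenic cells, and its other was at -0.31. Cd79a, a signalling chain of the B cell receptor, was at 19609 in transgenic and 46825 in non-transgenic cells (-1.26). Of the gate's own genes, given after their values were seen, Ptprc, which encodes B220, was at 28480 in transgenic and 35684 in non-transgenic cells by its brighter probe set (-0.33). Itgax, which encodes CD11c, was above the filter at 804 in transgenic and 670 in non-transgenic cells (0.26).

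Natural killer cells express Cd2, and some express Thy1. All 15 probe sets for 12 of 15 genes were above the filter, 2 were called higher and 0 lower, with a median of 0.55. Over all probe sets above the filter, 4.71% were called higher and 4.04% lower, with a median of 0.15. The summed intensity of the 15 was 16449 in transgenic and 10940 in non-transgenic cells. The called ones were Klre1, a lectin-like receptor (1.29), and the protease Gzma (1.02). Below 0 were another granule protease, Gzmb (-0.61), both probe sets of the pore-forming protein Prf1 (-0.50 and -0.06) and 1 of 2 for the receptor Klrc1 (-0.83), picked out after their values were seen. Plasmacytoid dendritic cells, which carry B220 and can carry Cd4 and Cd8a, were read by 21 probe sets for 7 genes. Of 18 above the filter 2 were called higher and 1 lower, with a median of 0.26, and all 21 summed to 24865 in transgenic and 20342 in non-transgenic cells. That sum is led by the transcription factor Tcf4, whose brightest probe set was at 5499 in transgenic and 4476 in non-transgenic cells. It is therefore not a measure of these cells. The called probe sets of this list were 1 of 4 of Klk1 (1.29), 1 of 5 of the chemokine receptor Ccr9 (1.06) and 1 of 6 of Tcf4 (-1.16). Both higher ones, 1455977_x_at and 1427419_x_at, have the suffix of sequence that may hybridise to other transcripts. The other Klk1 probe sets lay between 0.43 and 0.48 and the other Tcf4 ones between 0.07 and 0.32. The other Ccr9 ones above the filter were at -0.31 and 0.26. Siglech, the surface lectin that defines these cells, was at 830 in transgenic and 882 in non-transgenic cells (-0.09), and was chosen after its values were seen.

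Conventional dendritic cell genes gave 9 probe sets for 6 of 7 genes, with 1 of 5 above the filter called lower and 0 higher, and all 9 summed to 2186 in transgenic and 1975 in non-transgenic cells. The lower one was Batf3, a factor of the CD8-positive dendritic cell lineage, at 69.8 in transgenic and 179 in non-transgenic cells (-1.36). It passed the filter through its non-transgenic value alone, as did lower calls such as those for Zbtb32, Trgv1, Pag1, Runx3 and Tcf4. Such probe sets could hardly have passed without differing. Over all probe sets above the filter, 4.04% were called lower and 4.71% higher. Myeloid genes gave 12 probe sets for 10 of 11 genes, all above the filter, with 1 called higher and 0 lower and a sum of 22572 in transgenic and 20362 in non-transgenic cells. That one was the granule gene Ngp, at 1011 in transgenic and 371 in non-transgenic cells (1.45). The erythroid list had 2 probe sets, both under the floor on both arrays. A sort for B220 without CD11c should remove conventional dendritic, most myeloid and erythroid cells. Yet all 12 myeloid probe sets were above the filter on both arrays. The brightest, for Lyz2, was at 5939 in transgenic and 6172 in non-transgenic cells, given after its values were seen. Which cells gave these signals was not tested. The part of any of the listed cell types in the values of Cd4, Cd8a, Cd2 and Thy1 was not tested either.

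**Figure D4:**
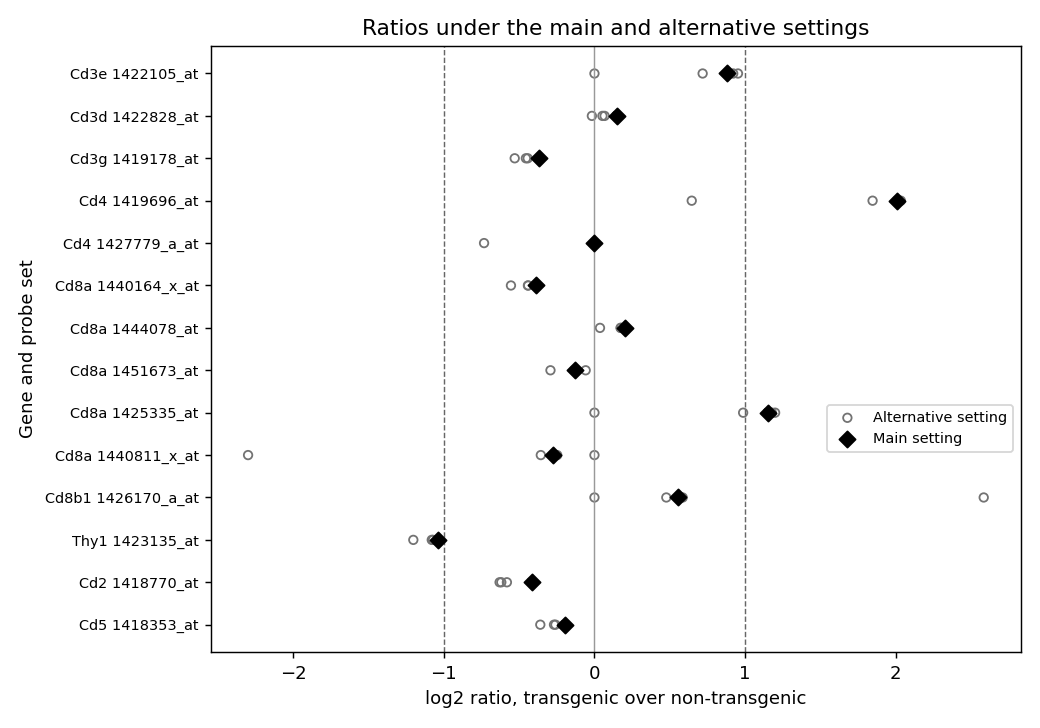
Log2 ratio, transgenic over non-transgenic, of each of the 14 probe sets under the main setting (diamond) and under up to 11 alternative settings of scaling, filter, floor, fold threshold and probe set choice (open circles). Thy1 stays between -1.20 and -1.04, Cd4 1419696_at drops to 0.65 with the floor at the pooled median, and the dim Cd8a and Cd8b1 probe sets move most.

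Of the 11 alternatives, 3 scalings and 2 floors can alter a ratio, while the others change only which probe sets are counted or called. Under these 5, Thy1 lay between -1.20 and -1.04, Cd2 between -0.63 and -0.42, Cd3g between -0.53 and -0.37 and Cd5 between -0.36 and -0.20. Cd4 1419696_at lay between 0.65 and 2.03. The split of called probe sets over the whole array was 53.8% higher, but 31.9% without alignment of the arrays, with 694 higher and 1481 lower. The median ratio of all probe sets above the filter was then -0.03.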

How the data were processed

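Gene expression was measured on 1 Affymetrix array per group, in which every probe set has an intensity on a linear scale, as the authors deposited it. Their software and background step are not given in the sources used here. Trimmed of the top and bottom 2% of values, the arrays' deposited means were 499.6 (transgenic) and 499.99 (non-transgenic). Values are not centred and come from 1 channel. Deposited medians were 93.1 in transgenic and 104.3 in non-transgenic cells.

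The 64 control probe sets were left out. Of 45037 others, 34945 have 1 symbol in the platform's gene table, 932 several and 9160 none, and only the first were named. Symbols looked up by Entrez identifier in a RefSeq table changed in 0 cases. Since the log2 medians differed by -0.16, each array was scaled to the pooled median (factors 1.06 and 0.947). The floor was the pooled 25th percentile and the filter the pooled median. The steps were tested on simulated data with 200 altered probe sets. These were all bright, differed by well over 2-fold and had less scatter than these arrays. The test therefore does not show how reliable dim calls such as Cd4 and Thy1 are.

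All 10 genes are named, and from each other list at most 4 genes called 2-fold apart, otherwise the brightest. Other names were chosen after their values were seen. The members and lists were chosen with earlier results of these data known. Alternatives changed the scaling, filter, floor, threshold or probe sets. Python 3.11.15 was used with pandas 2.3.3, numpy 2.4.6, statsmodels 0.14.6 for loess and matplotlib 3.10.9.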

Additional observations from a re-analysis of the deposited data

How the results depend on the processing

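No paired analysis was possible because each group had 1 array. Called probe sets of the receptor complex and coreceptor genes numbered 1 higher and 1 lower. The higher count was 0 with both values above the filter, 0 with the filter at the pooled 75th percentile, 0 with the floor at the pooled median and 2 without a filter, where Cd8a 1425335_at joined Cd4. The lower count was 0 with the filter at the 75th percentile, which left 1 of these probe sets, and 1 under the other 10 alternatives. For the other T cell genes the higher count of 0 became 4 of 95 without a filter and 2 of 56 at 1.5-fold. Of all probe sets, 5.24% were called higher without a filter and 17.1% at 1.5-fold. Their lower count of 5 became 2 of 44 with both values above the filter and 1 of 20 with the filter at the 75th percentile. In each of these settings, 1.79% of all probe sets were called lower. The count became 3 of 56 with the floor at the pooled median, 14 of 56 at 1.5-fold and 1 of 36 with 1 probe set per gene. The shares of all probe sets called lower there were 1.95%, 10.5% and 3.19%. Median log2 ratios lay between -0.42 and -0.06 for the receptor complex and coreceptor genes and between -0.20 and 0.07 for the other T cell genes. The -0.42 is the ratio of Cd2, the 1 probe set left with the filter at the 75th percentile. The median of all probe sets counted lay between -0.03 and 0.21 over the same settings. The cause of the shifts between scalings was not tested. Signals near the floor limit the ratios of Cd3e, Cd8b1, Cd4 and 2 of 5 Cd8a probe sets most.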
